A study of Mus musculus with 12 samples.

Results

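Glycosphingolipid glycosyltransferases are the Golgi enzymes that build sugar chains on ceramide, and 10 of their genes were followed here among the 51467 genes of the count table. The members were listed by symbol as enzymes of the lacto, globo and ganglio series, and the list was drawn up because B3gnt5 held its total RNA while its nascent RNA was lower in the differentiated cells. The set was thus chosen by the total and nascent values of B3gnt5, which are given as a description without a test, whereas the other 9 genes were tested. All 10 genes were among the 14731 with at least 3 CPM (reads scaled to a common library total) in at least 3 libraries.

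Mouse embryonic stem cells (ESCs) were compared with epiblast-like cells (EpiLCs), their descendants at the start of differentiation, to ask how far mRNA changes follow transcription and how far they follow mRNA stability. Both came from a V6.5 reporter line that carries miR-290 mCherry and miR-302 GFP, a single cell line. ESCs were grown with serum, LIF and 2i (inhibitors of MEK and GSK3), which hold the naive state, and EpiLCs were taken about 56 h after LIF and 2i were withdrawn. All cells received 4-thiouridine (4sU), a uridine analogue, at 500 µM for 30 min, and RNA captured through this label (4sU libraries, nascent RNA) was sequenced beside rRNA-depleted RNA (total libraries). Each of the 4 groups had 3 libraries. The study's text calls them biological replicates, the labels do not say whether each came from a separate culture, and the p-values measure the spread between these libraries.

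Ugcg places glucose on ceramide, and B4galt5 and B4galt6 add galactose to give lactosylceramide, where the pathway branches. B3gnt5 opens the lacto series, A4galt the globo series and St3gal5 the main ganglio series, and later enzymes lengthen or cap each chain. Products of these branches, among them the fucosylated antigen SSEA-1 and globo-series antigens, have long been used as surface markers of early embryonic and pluripotent cells.

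Gene counts summed to 3097693 to 5385644 reads in the 4sU libraries and to 9300845 to 21975684 in the total libraries, so the nascent values carry the larger counting error. Read numbers alone, without molecular identifiers, give a precision that covers counting error only. The standard errors (SE) and p-values below also take in the spread between libraries. The ESC replicate 3 libraries of both assays stood apart from the other ESC libraries on the third principal component (2.35% of the variance), and results were also computed without them. The labelled states were visible in the markers. All 10 naive pluripotency genes were lower in EpiLC total RNA and 6 of 7 formative and primed genes were higher, by the same test used for the members below. Summed CPM of 8 fibroblast genes was 11.3 to 15.5 in ESC total and 16.3 to 20.8 in EpiLC total libraries, and 7.87 to 9.76 and 6.36 to 6.83 in the 4sU libraries. Of the 4 fibroblast genes kept, Dcn (mean 0 and 4.81 CPM in total RNA) and Col1a2 (0.157 and 4.26 CPM) were called higher, and Pdgfrb, the most abundant, was called lower. Summed primitive endoderm markers, led by Col4a1, were at 62.1 to 78.6 CPM in ESC total and 213 to 225 CPM in EpiLC total libraries. Most of this sum was Col4a1, with means of 61 and 199 CPM. Of the 5 genes of this list that were kept, 3 were called higher and 1, Sox17, lower (log2 fold change -4.13). Mesendoderm markers, led by Eomes, summed to 17.2 to 28.1 and 20.5 to 31.1 CPM in total RNA, which overlapped, and to 20.9 to 28.3 and 43.2 to 96.1 CPM in nascent RNA, which did not. T and Mixl1 of that list were called higher in total RNA (log2 fold changes 2.35 and 2.51), and Eomes was not called (-0.23). Gsc (means 4.1 and 0.991 CPM in ESC and EpiLC total RNA) and Mesp1 were not kept. Neural markers, led by Tubb3 in total RNA, summed to 72.4 to 75.2 and 68.3 to 89.4 CPM there. In nascent RNA they summed to 42.5 to 47.9 and 67.2 to 94.3 CPM, again apart in this assay alone. Sox1 had the highest nascent means (22.2 and 43.4 CPM), and Tubb3 had 13.1 and 7.12 CPM. Of the 4 neural genes only Pax6 was called in total RNA (higher, 5.41). The part of these other cell types in the results was not tested. In bulk RNA, fewer cells that express a gene and less RNA per cell cannot be told apart.

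B3gnt5 (chr16:19760208-19772753, mm10) encodes the N-acetylglucosaminyltransferase that makes the lacto-series precursor. Its nascent RNA was 193, 214 and 176 CPM in the 3 ESC libraries, after scaling by TMM (the trimmed mean of M values), and 32.8, 41.3 and 42.1 CPM in the EpiLC libraries. Its total RNA was 96.8, 108 and 101 CPM in ESCs and 101, 103 and 106 CPM in EpiLCs. The nascent libraries of the cell types were far apart, and the total libraries overlapped. The fitted nascent RNA was 5.05-fold lower in EpiLCs (log2 fold change -2.34 ± 0.12, SE) while the log2 fold change of total RNA was 0.02 ± 0.09. These are the values on which the gene was chosen.

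**Figure D1:**
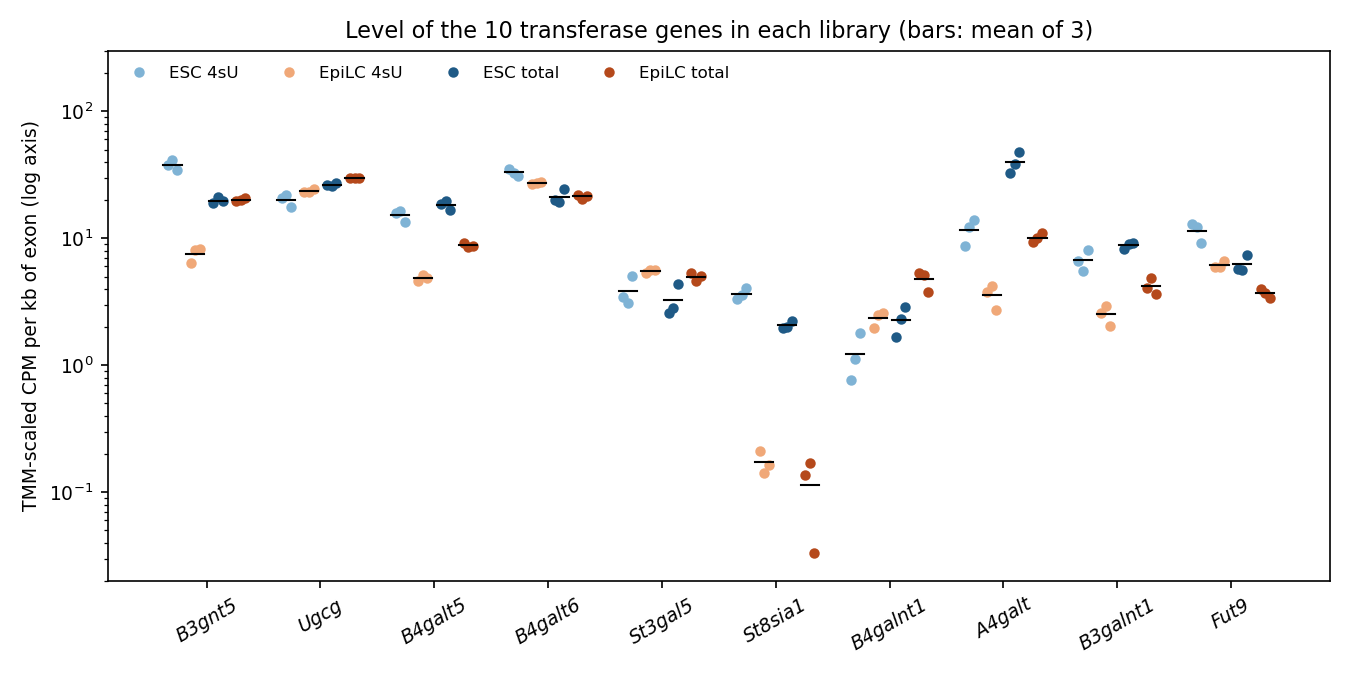
TMM-scaled CPM per kilobase of exon (log axis) of the 10 transferase genes, with a point for each library, colours for the 4 groups and a bar at the mean of 3. B3gnt5 spans 34.2 to 41.7 in ESC 4sU and 6.37 to 8.2 in EpiLC 4sU libraries, and St8sia1 is at most 0.21 in every EpiLC library.

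Levels were compared between genes per kilobase of exonic length. In ESC nascent RNA B3gnt5 was the highest of the 10 members at 37.9 ± 3.72 CPM per kb (SD, n = 3), and its libraries overlapped those of B4galt6, the next gene at 33.0 ± 2.02. In ESC total RNA A4galt led with 39.7 ± 7.69 CPM per kb, apart from Ugcg at 26.3 ± 0.824, and B3gnt5 followed Ugcg and B4galt6 at 19.8 ± 1.09, overlapping both B4galt6 above it and B4galt5 below it. The order thus differed between the assays of the same cells. In EpiLC nascent RNA B4galt6 led with 27.5 ± 0.529 CPM per kb, and B3gnt5 was the third at 7.54 ± 1.01, overlapping Fut9 at 6.17 ± 0.37. In EpiLC total RNA Ugcg led with 29.7 ± 0.0572 CPM per kb, followed by B4galt6 at 21.4 ± 0.851 and B3gnt5 at 20.1 ± 0.565, whose libraries overlapped. St8sia1 had the lowest mean in 3 of the 4 groups, overlapping B4galnt1 in ESC total RNA, and in ESC nascent RNA it overlapped St3gal5 above B4galnt1.

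The step common to all series showed small differences. Ugcg (chr4:59189257-59222833), the ceramide glucosyltransferase, had 83.2, 87.5 and 71.3 CPM in ESC and 93.5, 93.2 and 98.8 CPM in EpiLC nascent RNA. In total RNA it had 105, 103 and 109 CPM in ESCs and 119 CPM in each EpiLC library. Every EpiLC library lay above every ESC library in both assays, but the differences were small, with log2 fold changes of 0.23 ± 0.09 (adjusted p = 0.0382) in nascent and 0.18 ± 0.07 (adjusted p = 0.0503) in total RNA. Neither reached the fold threshold. A gene was called when the Benjamini-Hochberg adjusted p of limma-voom, over all genes kept, was under 0.05 and the absolute log2 fold change was over 1.

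The pair of lactosylceramide synthase genes separated. B4galt5 (chr2:167298444-167349183) had 66.4, 69.1 and 56.7 CPM in ESC nascent RNA and 19.6, 21.8 and 20.5 CPM in EpiLC nascent RNA, a fall of 3.1-fold (log2 fold change -1.63 ± 0.13, adjusted p = 2.32e-07). Its total RNA fell 2.08-fold, from 78.7, 82.6 and 70.3 to 38.6, 35.9 and 36.9 CPM (log2 fold change -1.06 ± 0.09, adjusted p = 1.15e-07). Both assays were lower in every EpiLC library, but total RNA lay close to the fold threshold and was not called when library totals alone set the scale (-0.97). B4galt6 (chr18:20684599-20746404), which catalyses the same step, had 204, 191 and 181 CPM in ESC and 156, 160 and 163 CPM in EpiLC nascent RNA. Its total RNA was 116, 111 and 142 CPM in ESCs and 128, 119 and 126 CPM in EpiLCs, overlapping, and the log2 fold changes were -0.27 ± 0.10 (adjusted p = 0.0298) in nascent and 0.03 ± 0.09 (adjusted p = 0.793) in total RNA, neither called. Per kilobase, B4galt6 held 53.5% ± 5.26 of the summed pair in ESC total RNA and 70.8% ± 0.322 in EpiLC total RNA, and 68.5% ± 1.63 and 84.9% ± 0.639 in nascent RNA (SD, n = 3). The share of B4galt6 was higher in EpiLCs in both assays.

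Both globo-series genes fell. A4galt (chr15:83226726-83251774), which makes globotriaosylceramide from lactosylceramide, had 71.0, 83.3 and 104 CPM in ESC total RNA and 20.2, 21.9 and 24.0 CPM in EpiLC total RNA, a fall of 3.83-fold (log2 fold change -1.94 ± 0.15, adjusted p = 5.09e-08). Its nascent RNA fell 3.11-fold, from 19, 26.7 and 30.1 CPM to 8.25, 9.11 and 5.93 CPM (log2 fold change -1.64 ± 0.31, adjusted p = 0.000452), on 20 to 43 reads in the EpiLC libraries. The groups did not overlap in either assay. B3galnt1 (chr3:69574158-69598960), which extends that product to globoside, had 16.9, 18.4 and 18.8 CPM in ESC total RNA and 8.26, 9.85 and 7.36 CPM in EpiLC total RNA (log2 fold change -1.08 ± 0.14, adjusted p = 8.43e-06). Its nascent RNA was 13.5, 11.3 and 16.3 CPM in ESCs and 5.18, 5.93 and 4.15 CPM in EpiLCs (log2 fold change -1.35 ± 0.24, adjusted p = 0.000366). The total change of B3galnt1 was under the fold threshold without EpiLC total replicate 3 (-0.97) and on library totals alone (-0.99).

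The ganglio-series genes moved in different directions. St3gal5 (chr6:72097592-72154571), the GM3 synthase, had 6.43, 6.95 and 10.8 CPM in ESC total RNA and 13.1, 11.4 and 12.4 CPM in EpiLC total RNA. Its nascent RNA was 8.59, 7.69 and 12.5 CPM in ESCs and 13.2, 13.8 and 13.9 CPM in EpiLCs. Every EpiLC library lay above every ESC library in both assays, but the log2 fold changes of 0.70 ± 0.17 (adjusted p = 0.00224) in total and 0.58 ± 0.25 (adjusted p = 0.0619) in nascent RNA were not called. A gene of the annotation class TEC, which awaits experimental evidence, lies within St3gal5 on the same strand, so reads over it may be missing from the St3gal5 count.

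St8sia1 (chr6:142821545-142964452), which makes the disialoganglioside GD3 from GM3, had the largest change of the set. It reached 3 CPM in all 6 ESC libraries and in none of the EpiLC libraries, so it passed the filter on low values through ESCs alone and had to differ. It had 17.7, 17.9 and 20.0 CPM in ESC total RNA and 1.23, 1.52 and 0.298 CPM in EpiLC total RNA, where it was seen in 11, 16 and 3 reads. The total change was 20.8-fold lower (log2 fold change -4.38 ± 0.37, adjusted p = 1.25e-07). Nascent RNA fell 19.9-fold, from 30.1, 32.2 and 36.6 CPM to 1.88, 1.27 and 1.48 CPM, which were 8, 6 and 5 reads (log2 fold change -4.31 ± 0.41, adjusted p = 1.06e-06). The 23 alternatives use the same counts, so the calls of both falls in each of them add no support. The total change lay between -4.81 and -3.68 over them, and the few EpiLC reads limit its precision.

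B4galnt1 (chr10:127165225-127172330), the GM2 and GD2 synthase that carries gangliosides to longer chains, rose. Its total RNA was 4.0, 5.54 and 6.88 CPM in ESCs and 12.7, 12.4 and 9.05 CPM in EpiLCs, 2.17-fold higher (log2 fold change 1.12 ± 0.20, adjusted p = 0.000191), and 0.88 without ESC total replicate 1, which ended the call. Its nascent RNA was 1.84, 2.68 and 4.34 CPM in ESCs, on 9 to 16 reads, and 4.71, 5.93 and 6.23 CPM in EpiLCs, on 20 to 28 reads. The nascent change sat at both thresholds (log2 fold change 1.02 ± 0.41, adjusted p = 0.0498) and was lost in 11 of the 22 alternatives, over which the adjusted p ran from 0.0128 to 0.196. St3gal5, St8sia1 and B4galnt1 each overlap a gene on the opposite strand, and the reads came from a stranded kit counted with a strand option. Libraries whose removal ended the nascent call of B4galnt1 were ESC 4sU replicates 1 (0.73) and 2 (1.06), EpiLC 4sU replicates 2 (0.97) and 3 (1.03), ESC total replicate 2 (1.02) and EpiLC total replicates 1 and 2 (both 1.03).

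Fut9 (chr4:25609332-25800244), a fucosyltransferase that makes the Lewis X epitope known as SSEA-1, was lower in EpiLCs in both assays. It had 70.6, 69.2 and 90.0 CPM in ESC and 49.2, 45.7 and 41.1 CPM in EpiLC total RNA (log2 fold change -0.74 ± 0.13, adjusted p = 0.000179). Its nascent RNA was 159, 150 and 113 CPM in ESCs and 73.0, 72.7 and 80.7 CPM in EpiLCs (log2 fold change -0.90 ± 0.14, adjusted p = 0.000109). Neither change reached the fold threshold, although without both ESC replicate 3 libraries the nascent change did (-1.07, adjusted p = 3.24e-09).

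In total RNA, 1 of the 9 tested members was called higher (B4galnt1) and 4 lower (B4galt5, St8sia1, A4galt and B3galnt1), where 16.3% of all genes kept were called higher and 11.2% lower. In nascent RNA the same counts were 1 higher and 4 lower, against 11.9% and 13.5% of all genes, and the names were those of total RNA. St8sia1, which passed the filter through ESCs alone, is among those called lower, and of the other 8 members 1 was called higher and 3 lower in each assay. The median log2 fold change of the 9 was -0.74 in total and -0.90 in nascent RNA, where the medians of all genes were 0.02 and -0.09, and without St8sia1 it was -0.36 and -0.58. Without both ESC replicate 3 libraries, 5 members were called in total and 6 in nascent RNA, of which Fut9 was the addition.

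**Figure D2:**
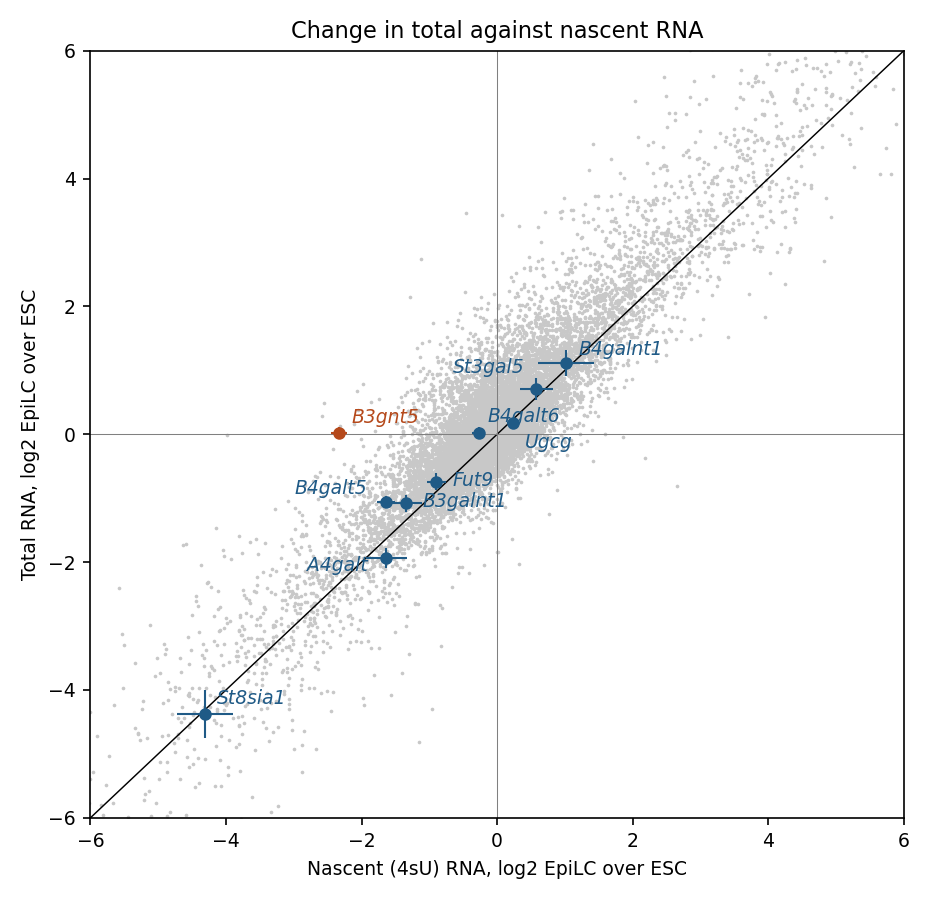
log2 fold change of total RNA (vertical) against nascent 4sU RNA (horizontal), EpiLC over ESC, for the genes kept (grey; 142 lie outside the axes), with the 10 members and their SE and the line of equal change. B3gnt5, in orange, sits at -2.34 nascent and 0.02 total, while St8sia1 lies near the line at -4.31 and -4.38.

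The mRNA stability change is the total change minus the nascent change, tested as the interaction of cell type and assay. Reading it as stability rests on the study's assumption that mRNA levels are steady over time within each state. Whether this held in EpiLCs, taken about 56 h after withdrawal, was not tested. None of the 9 tested members was called by limma-voom, where 1.24% of all genes were called with higher and 0.305% with lower stability in EpiLCs. In this fit no member passed the adjusted p and 2 had an unadjusted p under 0.05. The count of members called was also 0 by edgeR, DESeq2 and in each other alternative. Without both ESC replicate 3 libraries, some members passed the adjusted p below the fold threshold. These were B4galt6 (0.45, adjusted p = 0.00196), B4galt5 (0.60, adjusted p = 0.00358) and Fut9 (0.43, adjusted p = 0.0131), and the other tested members did not pass. The log2 stability changes of the 9 ran from -0.30 (A4galt) to 0.57 (B4galt5), with a median of 0.13 against 0.11 over all genes. For B4galt5 the change was 0.57 ± 0.16 (adjusted p = 0.056, and 0.00358 to 0.331 over 24 alternatives), below the fold threshold throughout. The labels say that labelled RNA was split between the assays, but not that the number marks libraries of 1 sample. With same-numbered libraries of a cell type as a culture block, 438 genes were called with higher and 90 with lower stability in place of 182 and 45, B4galt5 passed the adjusted p (0.57, adjusted p = 0.0212) but not the fold threshold, and no member was called. B3gnt5, which was chosen for this gap, had a stability change of 2.36 ± 0.15, and 58 of the 14731 genes had a larger one.

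Relative mRNA stability was the log2 ratio of total over 4sU CPM, taken between libraries of the same cell type and number. The place of 0 on this scale is set by the scaling, so a sign is not an absolute stability. On library totals alone the ESC mean was 0.04 in B4galt5 (0.27 by TMM) and -1.16 in B3gnt5 (-0.93 by TMM). By TMM the ratios of B3gnt5 were -1.0, -0.99 and -0.80 in ESCs and 1.62, 1.31 and 1.33 in EpiLCs. They placed the gene at percentile 28.4 of all genes in ESCs and 85.8 in EpiLCs. Among protein-coding genes alone these percentiles were 17.5 and 84. A4galt was high in both cell types, with means of 1.77 ± 0.13 and 1.52 ± 0.42 (SD, n = 3) and percentiles 91.7 and 86.9. Fut9 was low in both, with means of -0.87 ± 0.48 and -0.74 ± 0.21 and percentiles 29.1 and 28.2, or 18.2 and 17.5 among protein-coding genes. B4galt6 was likewise low, at -0.65 ± 0.26 and -0.36 ± 0.07. B3gnt5 thus lay near Fut9 and B4galt6 in ESCs and near A4galt in EpiLCs. B4galnt1 lay at 0.93 ± 0.24 and 1.00 ± 0.45, B3galnt1 at 0.41 ± 0.26 and 0.74 ± 0.08, and B4galt5 at 0.27 ± 0.04 and 0.85 ± 0.13. Ugcg lay at 0.39 ± 0.20 and 0.32 ± 0.04, and St3gal5 at -0.26 ± 0.14 and -0.15 ± 0.13. In St8sia1 the EpiLC ratios of -0.60, 0.24 and -2.11 rest on 3 to 16 total reads, beside -0.76, -0.85 and -0.87 in ESCs.

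**Figure D3:**
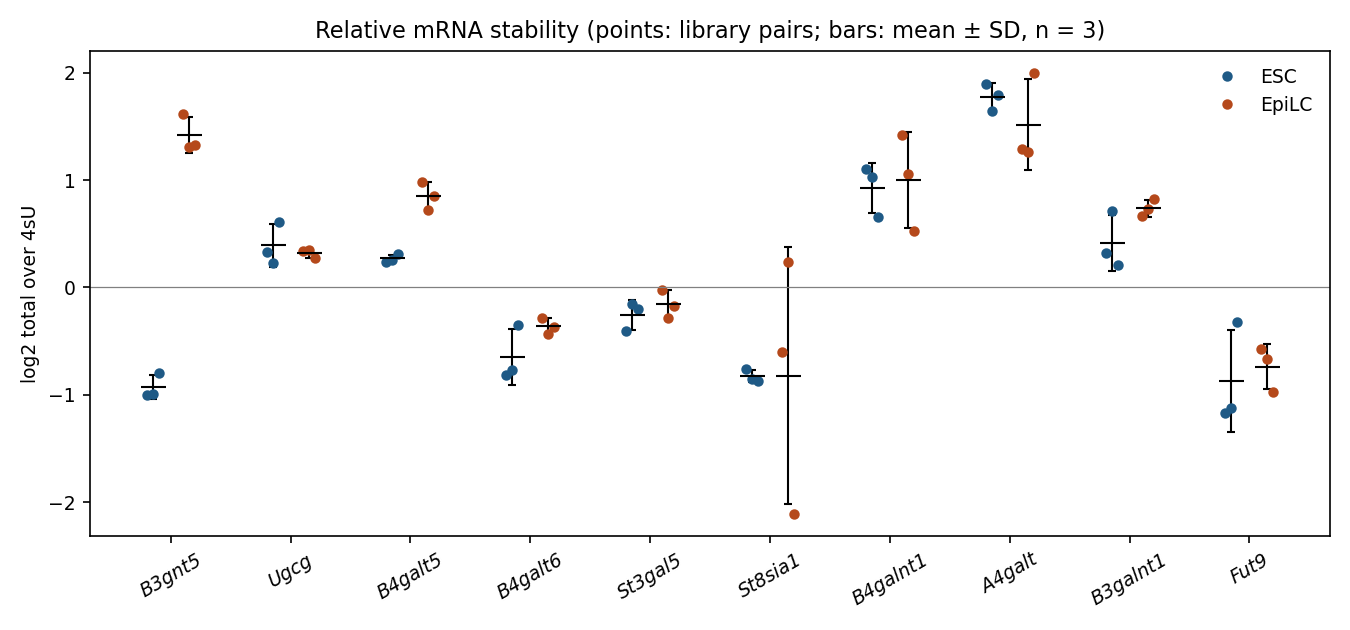
Relative mRNA stability (log2 total over 4sU) of the 10 members in ESCs and EpiLCs, with a point for each same-numbered pair of libraries and the mean ± SD over 3. The B3gnt5 points move from about -0.93 to 1.42, and the St8sia1 EpiLC points scatter from -2.11 to 0.24.

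B3gnt5, A4galt, St3gal5 and B4galnt1 all take lactosylceramide as a substrate, so their length-scaled counts were set beside each other in each library. In ESC total RNA A4galt held 60.7% ± 2.89 of the 4 and B3gnt5 30.9% ± 4.03 (SD, n = 3). In EpiLC total RNA the order was reversed, with B3gnt5 at 50.3% ± 0.764 and A4galt at 25.4% ± 1.8. By reads without length scaling, B3gnt5 had the larger mean in ESC total RNA as well (50.9% against 42.5%), although in ESC total replicate 3 A4galt was the larger (46.7% against 45.4%). The ganglio-series pair was small in ESC total RNA, St3gal5 at 4.96% ± 0.786 and B4galnt1 at 3.47% ± 0.436, and larger in EpiLCs at 12.5% ± 0.902 and 11.9% ± 2.28. The libraries of the cell types did not overlap in any of these shares.

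In nascent RNA B3gnt5 held 69.4% ± 6.3 in ESCs and 39.6% ± 3.1 in EpiLCs. A4galt held 21.2% ± 3.95 and 18.9% ± 4.01, overlapping. St3gal5 held 7.14% ± 1.93 and 29.2% ± 1.56, and B4galnt1 2.25% ± 0.932 and 12.4% ± 1.16. The share of B3gnt5 was thus higher in EpiLCs in total RNA and lower in nascent RNA. These shares contain the gene on which the set was chosen and were not tested, and they are shares of transcript levels within 4 genes, not of lipid products. A share also moves when another of the 4 genes changes. In nascent RNA B3gnt5 itself was 5.05-fold lower in EpiLCs, and St3gal5 was 1.49-fold higher and not called (limma-voom adjusted p = 0.0619).

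**Figure D4:**
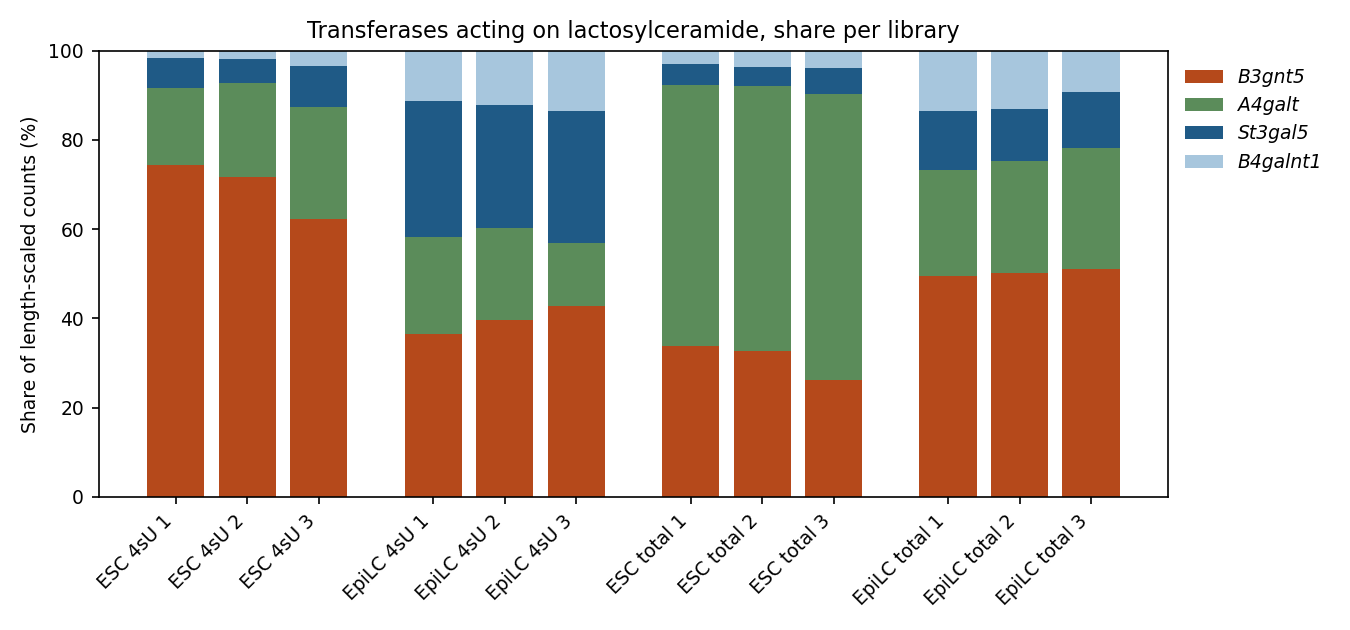
Share (%) of each of the 4 genes whose enzymes act on lactosylceramide in their summed length-scaled counts, with a stacked bar for each library. B3gnt5 fills 62.3 to 74.3% of the ESC 4sU bars, and A4galt fills 58.6 to 64% of the ESC total bars but 23.6 to 27.2% of the EpiLC total bars.

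Because nascent RNA was lower in EpiLCs by over 1 on the log2 scale in B3gnt5, B4galt5, A4galt, B3galnt1 and St8sia1, the 250 bases before their RefSeq start sites are shown (GRCm38.p6, the build also called mm10). Capitals mark the GC box letters GGGCGG, the CCAAT box and the TATA box letters TATAAA on either strand.
B3gnt5 (chr16:19759984-19760233, plus strand): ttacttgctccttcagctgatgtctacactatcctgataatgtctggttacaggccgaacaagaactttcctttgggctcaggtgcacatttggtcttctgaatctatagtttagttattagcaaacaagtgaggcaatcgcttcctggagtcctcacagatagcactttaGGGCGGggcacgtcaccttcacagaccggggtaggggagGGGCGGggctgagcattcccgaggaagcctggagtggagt
B4galt5 (chr2:167349179-167349428, minus strand): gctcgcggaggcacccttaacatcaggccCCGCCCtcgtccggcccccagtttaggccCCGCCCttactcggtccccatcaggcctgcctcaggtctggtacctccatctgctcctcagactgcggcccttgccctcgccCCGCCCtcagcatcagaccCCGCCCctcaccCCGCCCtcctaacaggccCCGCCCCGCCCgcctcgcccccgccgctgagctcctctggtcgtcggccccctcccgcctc
A4galt (chr15:83251730-83251979, minus strand): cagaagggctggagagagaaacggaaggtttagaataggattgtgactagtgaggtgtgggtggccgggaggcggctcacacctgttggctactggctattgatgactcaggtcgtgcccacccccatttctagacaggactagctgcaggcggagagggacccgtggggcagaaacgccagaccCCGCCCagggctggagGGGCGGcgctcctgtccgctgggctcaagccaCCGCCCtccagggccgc
B3galnt1 (chr3:69598961-69599210, minus strand): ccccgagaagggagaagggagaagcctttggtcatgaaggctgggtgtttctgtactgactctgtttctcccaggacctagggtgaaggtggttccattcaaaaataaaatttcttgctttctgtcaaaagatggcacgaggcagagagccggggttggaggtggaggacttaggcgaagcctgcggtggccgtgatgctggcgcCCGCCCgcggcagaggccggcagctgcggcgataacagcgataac
St8sia1 (chr6:142964453-142964702, minus strand): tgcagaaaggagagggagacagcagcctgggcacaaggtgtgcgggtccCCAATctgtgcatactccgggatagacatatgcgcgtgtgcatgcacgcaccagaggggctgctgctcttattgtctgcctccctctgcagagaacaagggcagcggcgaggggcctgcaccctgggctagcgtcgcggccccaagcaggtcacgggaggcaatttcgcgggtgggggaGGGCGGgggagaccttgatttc
RefSeq start windows were matched for 7 members, the others being Ugcg and St3gal5. GGGCGG was found in all 7 and in 32.7% of all 32851 windows of this length, with 7 matches in B4galt5, 3 in A4galt, 2 each in B3gnt5, Ugcg and St3gal5, and 1 each in B3galnt1 and St8sia1. CCAAT was found in St8sia1 and St3gal5 and in 33.8% of all windows. TATAAA was in none of the 7 and in 12.4% of all windows. B3gnt5 had the lowest GC content of the 7 at 51.2%, near the median of all windows (52.4%), and the others ranged from 57.2% (B3galnt1) to 80.4% (Ugcg). The matches are letters in a window and not measured sites, and a link to the nascent changes was not tested.

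Transcript structure was read from the principal GENCODE M21 transcript. The coding sequence lay in a single exon in 4 of the 10 members (B3gnt5, A4galt, B3galnt1 and Fut9) and in 6.29% of the 12297 protein-coding genes compared. The 3′ UTR was 2590 bases in B3gnt5, longer than in 81.4% of those genes, and 10401 bases in Fut9, with 7 copies of the AU-rich heptamer TATTTAT. It was 779 bases in A4galt and 773 in B3galnt1. B3gnt5 held 1 copy of the heptamer, which 29% of the genes and 6 of the 10 members held at least once.

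The study asks how microRNAs act on their targets, and the main microRNA family of ESCs, drawn from the miR-290 and miR-302 clusters, shares the seed AAGUGCU (bases 2 to 8). A match to it, the letters AGCACTT or, with an A opposite the first microRNA base, GCACTTA, in the 3′ UTR was found in 1 member, Ugcg, and in 19.5% of the protein-coding genes compared. The RefSeq mature sequences of a member of each cluster (seed in capitals) and the Ugcg site (match in capitals) are shown, since this is the only such site in the set.
miR-294-3p: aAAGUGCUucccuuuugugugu
miR-302b-3p: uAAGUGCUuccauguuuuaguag
Ugcg site (chr4:59221894-59221918, plus strand): ctgttaaccccAGCACTTggcagct
The site begins 1512 bases into the Ugcg 3′ UTR. The stability change of Ugcg was -0.06 ± 0.12 (adjusted p = 0.819), and B3gnt5 has no such match in its 3′ UTR. In the study the miR-290 reporter was on in both cell types and the miR-302 reporter in EpiLCs only. Whether the site acts was not tested. All seed matches were counted here, whereas the study took conserved TargetScan targets.

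The wider pathway was described by 3 lists. Of 16 ceramide synthesis and transport genes, 13 were kept, and in total RNA 2 were called higher and none lower, where 16.3% and 11.2% of all genes were. Of the 13, 7 were below 0 without reaching the fold threshold, among them Cers6 (log2 fold change -0.78, adjusted p = 0.000127) and Plekha8 (-0.54, adjusted p = 5.16e-05), which were picked out after their values were seen. Cers4 rose from 30.9, 23.0 and 21.5 to 63.6, 58.7 and 57.5 CPM (log2 fold change 1.25 ± 0.12, adjusted p = 4.53e-07), and Cers2 from 62.9, 64.3 and 66.6 to 141, 141 and 144 CPM (2.2-fold higher, adjusted p = 1.51e-08). Both are ceramide synthases. In nascent RNA 1 gene of this list was called higher and 1 lower (11.9% and 13.5% of all genes), and the median total change was -0.15.

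Of 26 other transferases of glycolipids, 19 were kept, and in total RNA 6 were called higher and 4 lower (16.3% and 11.2% of all genes), with 5 in each direction in nascent RNA (11.9% and 13.5%). St8sia3, Fut4, Fut1 and St3gal6 reached 3 CPM in EpiLC libraries alone and Gbgt1 in ESC libraries alone, so these 5 passed the filter through the cell type in which they were high and had to differ. Of the other 14, 2 were called higher and 3 lower in total RNA, and 1 higher and 4 lower in nascent RNA. St8sia3, Fut4 and Fut1 had few reads in ESCs. St8sia3, a sialyltransferase, went from 0.232, 0.252 and 0.197 to 7.48, 8.05 and 9.44 CPM (log2 fold change 4.99 ± 0.39, adjusted p = 4.53e-08), from 2 to 5 reads in the ESC libraries. Fut4, which like Fut9 can make Lewis X, went from 0.521, 0.604 and 0.393 to 6.81, 5.69 and 7.55 CPM (3.60 ± 0.29, adjusted p = 6.13e-08). Fut1, an α1,2-fucosyltransferase, went from 0.579, 0.705 and 1.08 to 5.47, 6.54 and 7.06 CPM (3.07 ± 0.32, adjusted p = 8.66e-07). Gbgt1, which makes Forssman glycolipid from globoside, fell from 5.21, 4.68 and 4.92 to 0.446, 0.379 and 0.895 CPM (-3.08 ± 0.40, adjusted p = 9.79e-06).

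Fut4 was the only gene of the 3 lists called for stability. Its nascent RNA was 0.818, 1.07 and 1.63 CPM in ESCs, on 4 to 6 reads, and 3.06, 2.76 and 2.67 CPM in EpiLCs, on 9 to 13 reads. The nascent rise of 1.29 ± 0.38 (adjusted p = 0.0105) was smaller than the total rise, and the interaction was 2.31 ± 0.48 (adjusted p = 0.0167, and 0.00694 to 0.0515 over 22 alternatives). Without EpiLC 4sU replicate 1 it was 2.28 and no longer called (adjusted p = 0.0515).

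Of 16 genes of glycosphingolipid degradation, 15 were kept, and none was called higher and 4 lower in total RNA (16.3% and 11.2% of all genes), with the same counts in nascent RNA (11.9% and 13.5%). The median log2 fold change of the 15 in total RNA was -0.77, and 11 were below 0. Glb1, the lysosomal β-galactosidase, fell from 108, 98.4 and 123 to 32.0, 28.0 and 28.5 CPM (-1.89 ± 0.11, adjusted p = 2.82e-09). Gm2a, the GM2 activator protein, had a log2 fold change of -1.52 ± 0.11 (adjusted p = 1.6e-08) and Neu3, a plasma membrane sialidase, of -1.41 ± 0.27 (adjusted p = 0.000327). None of these 3 genes was called for stability, where 1.24% of all genes were called higher and 0.305% lower. The 3 were named for their large total changes.

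**Figure D5:**
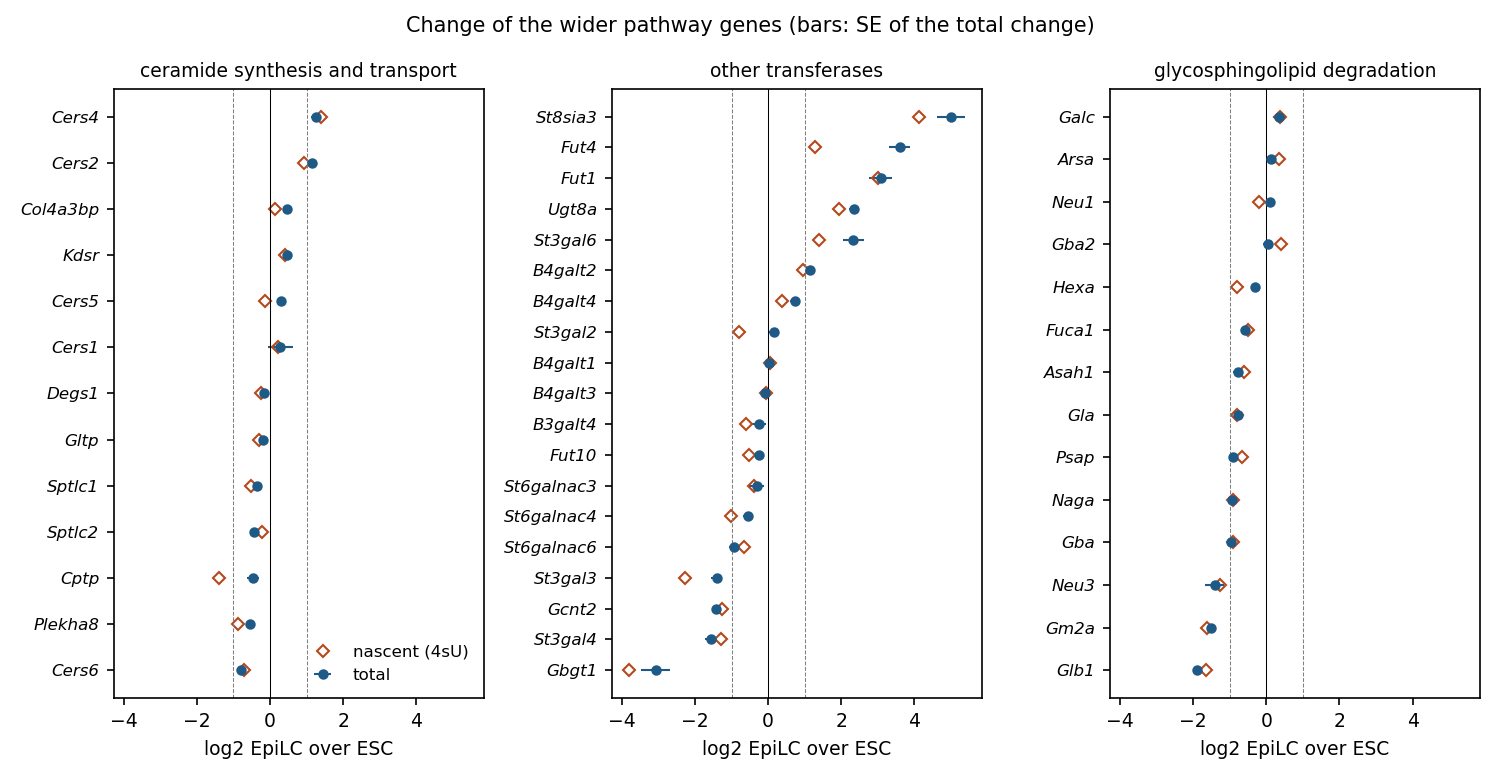
log2 fold change (EpiLC over ESC) of kept genes of the 3 wider lists (1 degradation gene is not drawn), with total RNA as filled points with SE and nascent RNA as open diamonds, and dashed lines at the fold threshold of 1. St8sia3 and Fut4 lie at 4.99 and 3.60 in total RNA, Gbgt1 at -3.08, and no degradation gene rises past the threshold.

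Among 10173 genes averaging 10 CPM or more, those whose log2 CPM followed B3gnt5 most closely over the 12 libraries were F2r (Pearson r = 0.924), Sec22c (0.922), Ptms (0.921), Emc3 (0.919) and Gm35315 (0.910). The libraries fall into 4 groups, so these values describe the group pattern and carry no p. In none of the 5 was the nascent difference as large as in B3gnt5, with log2 fold changes from -1.56 (Gm35315) to -0.36 (Sec22c). Among the members the closest was B4galt5 (0.818), followed by B3galnt1 (0.727), and St3gal5 had the lowest value (-0.539).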

How the data were processed

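RNA from 12 libraries (4sU and total RNA of ESCs and EpiLCs, 3 each) was analysed from a table of raw read counts per gene deposited by the authors. They trimmed 50 bp single-end reads with Cutadapt 1.14, aligned them to mm10 with STAR 2.5.3a, kept unique alignments, and counted exonic reads of a stranded kit per GENCODE M14 gene with featureCounts 1.5.3, rRNA annotation removed. Unique alignment can lower genes with close copies. The 92 spike-in entries held no reads, so no absolute scale was had, and library totals give the depth.

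Here genes that reached 3 CPM in 3 or more libraries were scaled by TMM (edgeR 4.0.16) and fitted by limma-voom (R 4.3.3, limma 3.58.1) with a mean for each of 4 groups. The filter, limma and the interaction of assay and cell type follow the study's methods, whereas TMM, voom and the absence of a replicate block were chosen here. Symbols came from GENCODE M21 (51274 IDs matched). The fit was tested on simulated data. Alternatives covered scaling, filter, edgeR, DESeq2 1.42.0, quality weights, thresholds, blocks and left-out libraries, and TMM before the filter was chosen after seeing the data.

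The members and lists were chosen with earlier results of these data known. Named were all members, the 4 called genes of each wider list with the largest total change, genes called for stability, and the 5 genes closest to B3gnt5. Of these, 1 called degradation gene is counted but not reported here by name. Markers are given as counts and sums, with single genes named where members of a list differed.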

Additional observations from a re-analysis of the deposited data

Results flagged for a closer look

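The change of Fut4 between cell types differed between total and nascent RNA by the interaction term of limma-voom, with a log2 difference of 2.31 ± 0.48 (adjusted p = 0.0167). Each total library of EpiLCs lay above each of ESCs. Fut4 passed the filter on low values through EpiLC libraries alone. The nascent values rest on 4 to 13 reads per library. Depth as a part of this result was not tested.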

How the results depend on the processing

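Of 945 comparisons of 41 gene changes with an alternative, 898 were counted as unchanged, 25 changed sign, 16 lost and 6 gained a call. Unchanged meant the same direction and side of the threshold. For the untested B3gnt5 it meant a shift smaller than the SD between libraries. Sign changes of its small total change are thus not among the 25. No called change turned its direction. With library totals alone 3 members were called in total RNA, and with the adjusted p alone 8 in nascent RNA. With each library left out in turn, 4 to 5 members were called in total and in nascent RNA and 0 for stability. Without length scaling B3gnt5 held 83.7% of the reads of the 4 lactosylceramide genes in ESC 4sU, 50.9% in ESC total, 58.7% in EpiLC 4sU and 69.3% in EpiLC total libraries, and A4galt 10.9%, 42.5%, 11.9% and 14.8%, so that B3gnt5 led in ESC total RNA as well, except in replicate 3. Among protein-coding genes alone the stability percentile of St8sia1 was 19.5 in ESCs and 14.6 in EpiLCs, in place of 30.2 and 25.5. The log2 changes of B3gnt5 ran over the alternatives from -2.43 to -2.15 in nascent RNA and from -0.051 to 0.105 in total RNA.

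Changes that turned sign were small and not called. The total change of B4galt6 was 0.00 with median-of-ratios scaling, -0.025 without a filter, -0.011 with DESeq2 and -0.037 with TMM before the filter, and -0.043 to 0.126 with a library left out. The stability change of Ugcg was 0.009 on library totals, 0.017 with quality weights and 0.061 without both ESC replicate 3 libraries. That of St8sia1 was 0.235 with edgeR, 0.144 with DESeq2, 0.064 with quality weights and -0.506 to 0.625 with a library left out. That of B4galnt1 was -0.004 without a filter, -0.024 without both ESC replicate 3 libraries, -0.003 with TMM before the filter and -0.249 to 0.387 with a library left out. That of St3gal5 was -0.128 to 0.289 with a library left out. The cause was not tested.

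TMM before the filter moved the median stability change of all genes by -0.103 and the genes called from 182 higher and 45 lower to 90 and 70. Without a filter 4241 genes were called higher in total RNA, in place of 2407. Calls for stability ran from 39 to 572 higher and 21 to 86 lower with a library left out, the most without ESC total replicate 3. Whether replicate numbers pair the assays is not settled, since deviations of same-numbered 4sU and total libraries correlated at 0.174 to 0.409 in ESCs, each best with its own number, but at 0.0194 to 0.0714 in EpiLCs, where that of number 3 did not. With the number as a replicate block, 5 members were called in total and 4 in nascent RNA, B4galnt1 being lost (0.99), 281 genes were higher and 73 lower in stability, and St8sia1 stability was 0.015. A block per culture gave 438 and 90, and St8sia1 was 0.177. Few nascent reads of B4galnt1, Fut4 and, in EpiLCs, St8sia1 limit what could be detected.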
